A study of Mus musculus with 8 samples.

Results

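Nuclear genes of the mitochondrial respiratory chain and ATP synthase were compared between neutrophils with and without surface CD71, taken from mouse brain tumours or grown in culture. They were the protein-coding rows of the count table whose symbols begin with Nduf, Uqcr, Atp5, Cox4, Cox5, Cox6, Cox7 or Cox8, together with Sdha, Sdhb, Sdhc and Sdhd. This rule took 94 rows with 93 symbols out of 55450 rows, of which 46 are named for complex I, 4 for complex II, 8 for complex III, 18 for complex IV and 18 for complex V. Among the 46 complex I names, 36 are subunits, 7 of them from the conserved core and 29 accessory, and 8 (Ndufaf) are assembly factors that are absent from the finished enzyme. The remaining complex I names are Ndufa4, now known as a complex IV subunit, and its paralogue Ndufa4l2. Cox7a2l, a factor of respiratory supercomplexes, and Atp5s also carry names of the family without being regular subunits. Atp5o stands for a pair of rows, one of which (ENSMUSG00000116933.1) had 0 counts throughout. The exons of that row, 530 bases long, overlap Donson and the other Atp5o row on the same strand by 530 bases. Its 0 counts may therefore not show absence.

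The 8 libraries form 4 groups of 2: tumour CD71+, tumour CD71−, culture CD71+ and culture CD71−. CD71 is the transferrin receptor, by which cells take up iron-loaded transferrin, and all cells were sorted by flow cytometry on its surface level. The tumour neutrophils came from brain tumours of SB28, a mouse glioma cell line, while the culture groups hold neutrophils derived in vitro from bone marrow labelled naive. The labels give no strain, sex or age, and they do not say whether libraries of a group had different animals or cultures as their source. The p-values therefore rest on the spread between these libraries alone, and that spread may be technical. By its title, the series concerns how hypoxia in tumours changes neutrophil function.

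The chain moves electrons from nutrients to oxygen across the inner mitochondrial membrane. Complex I takes them from NADH and complex II from succinate, ubiquinone carries them to complex III, cytochrome c carries them to complex IV, and complex IV reduces oxygen to water. Complexes I, III and IV pump protons as they do so, and complex V, the ATP synthase, lets the protons back through a rotor to make ATP. Most subunits are encoded in the nucleus and imported, while a small set is made inside the organelle from mitochondrial DNA. Mature neutrophils are known for few mitochondria and for ATP made mainly by glycolysis.

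Levels are CPM, which are counts relative to library sizes scaled by the trimmed mean of M values (TMM), the main scaling used here, and they are not divided by gene length. Total counts per library ran from 9598959 to 22615813, and the respiratory chain rows took 0.0607% to 0.292% of them. A count of 0 allows up to 3 counts, or 0.0916 to 0.419 CPM depending on the library, for counting error only. Tfrc, the gene of CD71, had 103 and 108 CPM in tumour CD71+ and 187 and 145 CPM in tumour CD71−, so on this scaling its transcript did not follow the sort label (log2 fold change −0.65, adjusted p = 0.0134; −0.08 with total counts and 0.33 when scaled on mature neutrophil genes, adjusted p = 0.765 and 0.209), and directions below go by the labels of the fractions. Tfrc had 116 and 115 CPM in culture CD71+ and 131 and 94.4 CPM in culture CD71− (log2 fold change 0.03, adjusted p = 0.940 by edgeR). In culture its log2 fold change was 0.34 with total counts and 0.88 when scaled on mature neutrophil genes (adjusted p = 0.243 and 0.00427). Of 25 mature neutrophil markers, 25 averaged at least 5 CPM in each tumour fraction and 24 did in each culture fraction. Markers of macrophages and monocytes (15 genes) summed to 4570.3 and 5055 CPM in tumour CD71+ and 1201 and 1184 CPM in tumour CD71−, and to 2459 and 1952 CPM in culture CD71+ and 1291 and 1334 CPM in culture CD71−. Culture CD71− replicate 2 lay above replicate 1 over the respiratory chain, with a median log2 ratio of 0.46 and 74 of 86 tested genes higher, against a median of −0.04 over all tested genes, so results that use the pair are also given without each of them. In RNA from many cells, fewer cells of a type and less RNA per cell cannot be told apart.

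Per length, the most abundant transcripts belonged to complexes IV and V. On the TPM scale (counts divided by the union of annotated exon length and scaled to 1 total in every library), Cox8a had the highest mean level over the 8 libraries, 236 TPM, followed by Cox6b1 with 206, Cox7a2l with 176, Atp5a1 with 134 and Cox7c with 113. The exon union counts rare long transcripts too and so lowers the TPM of some genes. Cox8a, a small membrane subunit of complex IV, stood at 161 and 147 TPM in tumour CD71+, 118 and 138 TPM in tumour CD71−, 463 and 304 TPM in culture CD71+ and 247 and 311 TPM in culture CD71−. TPM is not TMM-scaled, so it serves for the order of genes within a library and not for comparisons of groups.

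Where complex IV has a housekeeping isoform and a tissue-specific one, nearly all reads fell on the housekeeping form. Cox6a2, Cox7b2, Cox8b and Cox8c, known from heart, muscle or testis, had 0 counts in all 8 libraries. Cox7a1, the heart and muscle isoform, had 0 and 5 counts in tumour CD71+, 0 and 0 in tumour CD71−, 12 and 12 in culture CD71+ and 2 and 2 in culture CD71−. The housekeeping form Cox7a2 had 174 and 167 counts in tumour CD71+, 86 and 123 in tumour CD71−, 718 and 448 in culture CD71+ and 331 and 273 in culture CD71−. Cox4i2, best known from lung, stayed between 0.849 and 6.56 TPM, where Cox4i1 ran from 42.9 to 203 TPM, and Cox6b2, a testis form, had at most 3 counts in a library. Ndufa4l2, known in other cells as a gene induced by hypoxia, had 0 counts in all 4 tumour libraries, 28 and 16 counts in culture CD71+ and 1 and 0 in culture CD71−. Its paralogue Ndufa4 had 37 and 62 counts in tumour CD71+, 13 and 17 in tumour CD71−, 172 and 137 in culture CD71+ and 68 and 69 in culture CD71−. Cox6a2, Cox6b2, Cox7a1, Cox7b2, Cox8b, Cox8c, Ndufa4l2 and the empty Atp5o row were too low to be tested, which left 86 of the 94 rows.

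Within the tumour, respiratory chain transcripts stood higher in the CD71+ than in the CD71− libraries, relative to all genes. By the quasi-likelihood test of edgeR, with Benjamini-Hochberg adjusted p-values over 15975 genes, 40 of the 86 tested rows were higher at an adjusted p under 0.05 and 2 were lower. Over all tested genes, 26.2% were higher and 17.3% lower. The median log2 fold change of the 86 was 0.83, against 0.13 for all genes, and 72 of the 86 were above 0. Summed over all 94 rows, the level was 1461 and 1466 CPM in tumour CD71+ and 1009 and 961 CPM in tumour CD71−. Beside this, the macrophage and monocyte markers passed as higher in 12 of 14 tested and the microglia markers in 10 of 10, with sums of the microglia list of 1123 and 1599.8 CPM in tumour CD71+ and 115 and 150.1 CPM in tumour CD71−, while mature neutrophil markers passed as lower in 20 of 25. The cell cycle list passed as higher in 8 of 12, and the 6 erythroid markers summed to 2.89 and 1.13 CPM in tumour CD71+ and 0.419 and 0.416 CPM in tumour CD71−, with Hba-a1 at 0 in all of them. The 1 erythroid marker that could be tested, Alas2, had a log2 fold change of 2.58 (adjusted p = 0.0585). The part of these other genes in the respiratory chain difference was not tested. Without tumour CD71− replicate 1 the share of higher rows fell to about that of all genes. The median of the chain then exceeded that of all genes by 0.59, and without tumour CD71− replicate 2 by 0.60. Of the 40, 9 held in each of the 16 alternative settings in which they could be tested: Ndufa9, Ndufa10, Ndufb5, Ndufc2, Uqcrb, Uqcrc1, Cox7b, Atp5g1 and Atp5g3.

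**Figure D1:**
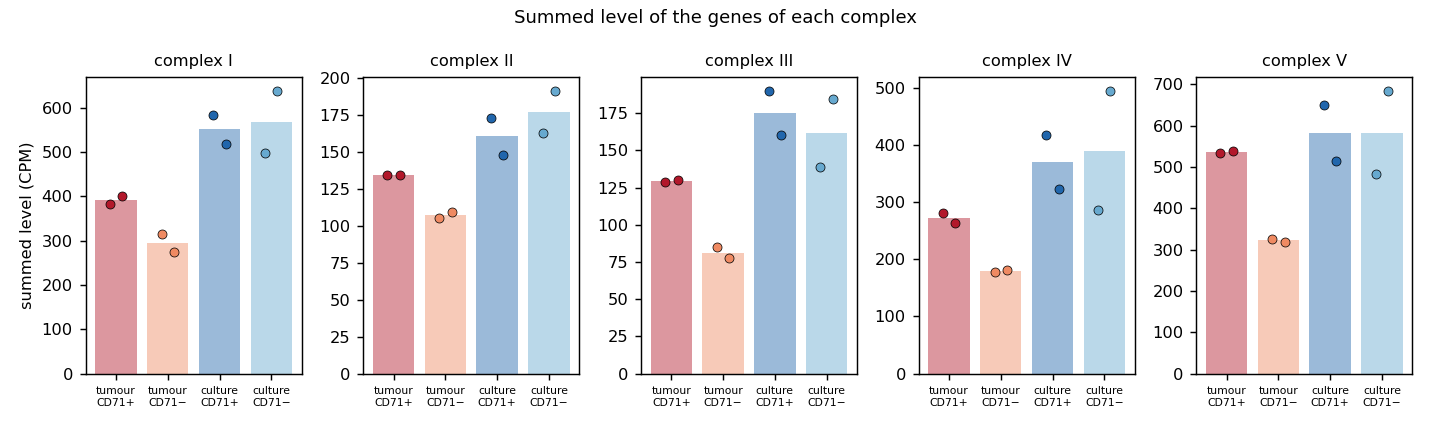
Summed level (CPM, TMM-scaled) of the rows named for each complex, in tumour CD71+, tumour CD71−, culture CD71+ and culture CD71− (left to right). Points are the 2 libraries of a group and bars their mean; in each of the 5 complexes both tumour CD71+ libraries lie above both tumour CD71− libraries, and both tumour CD71− libraries lie below all culture libraries.

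Complex I, which has the most tested rows, held the largest number of the higher rows, though not the largest share. Of its 45 tested rows, 20 were higher in tumour CD71+ and 2 lower, with a median log2 fold change of 0.97. Among the 7 core subunits, which carry the flavin, the iron-sulphur clusters and the ubiquinone site, the median was 0.81. Ndufs8, an iron-sulphur subunit, had 10.2 and 6.60 CPM in tumour CD71+ and 2.24 and 2.50 CPM in tumour CD71− (log2 fold change 1.82, SE 0.42, adjusted p = 0.00340). Both tumour CD71+ libraries lay above the tumour CD71− pair, which was a condition for the largest rises, to which Ndufs8 belongs. The share of all genes whose fractions did not overlap is not given, here or below, so such separation is a description only. Ndufs3, in the arm that reaches into the matrix, had 8.48 and 12.6 CPM in tumour CD71+ and 4.47 and 5.41 CPM in tumour CD71− (log2 fold change 1.09, SE 0.30, adjusted p = 0.00947). Ndufv2, an iron-sulphur protein at the tip where NADH is oxidized, had 15.2 and 15.4 CPM in tumour CD71+ and 8.53 and 7.08 CPM in tumour CD71− (log2 fold change 0.97, SE 0.25, adjusted p = 0.00640). Log2 fold changes that did not pass were 0.25 for Ndufs1, 0.34 for Ndufs7 and 0.72 for Ndufv1, which binds NADH and flavin (adjusted p = 0.280, 0.584 and 0.0619 in that order). Left out 1 at a time, the adjusted p was 0.0878 for Ndufs3 without tumour CD71+ replicate 2, and 0.130 for Ndufs3 and 0.0545 for Ndufs8 without tumour CD71− replicate 1. It was 0.0542 for Ndufs3 and 0.0994 for Ndufv2 without tumour CD71− replicate 2.

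Of the 29 accessory subunits, which surround the core, 14 were higher in tumour CD71+ and 1, Ndufa12, was lower (median 1.0). Ndufa9, a subunit at the joint between the matrix arm and the membrane arm (chr6:126821721-126849136 on mm10), had 10.3 and 13.8 CPM in tumour CD71+ and 2.10 and 3.05 CPM in tumour CD71−. Its change was the largest among rows above 5 CPM whose groups did not overlap, which is how the largest rises were chosen (log2 fold change 2.22, SE 0.33, adjusted p = 0.000204). A stretch of 67 bases of its exons lies on the opposite strand of 1700018A23Rik, and the strand setting of the counting was not given in the sources used here. Ndufa10 had 16.6 and 20.4 CPM in tumour CD71+ and 6.43 and 6.94 CPM in tumour CD71− (log2 fold change 1.46, SE 0.25, adjusted p = 0.000572), Ndufb5 had 7.71 and 12.9 CPM in tumour CD71+ and 3.5 and 3.47 CPM in tumour CD71− (log2 fold change 1.56, SE 0.34, adjusted p = 0.00237), and neither overlapped between fractions. Ndufc2 was low in the tumour, with 3.95 and 3.2 CPM in tumour CD71+ and 0.699 and 0.555 CPM in tumour CD71− (log2 fold change 2.50, SE 0.53, adjusted p = 0.00204). Ndufa12 (chr10:94198720-94221443 on mm10), an accessory subunit of the matrix arm, went the other way, with 30.1 and 23.2 CPM in tumour CD71+ and 73.0 and 48.8 CPM in tumour CD71− (log2 fold change −1.19, SE 0.23, adjusted p = 0.00133). Both tumour CD71− libraries lay above both tumour CD71+ libraries, as the choice of the largest falls required. Scaled on mature neutrophil genes, however, the adjusted p of Ndufa12 was 0.545. It shares 17.7% of its 50-base words with Gm15920, so reads of these 2 genes may be mixed.

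The 8 assembly factors of complex I moved in both directions, with 1 higher, 1 lower and a median of 0.26. Ndufaf4 had 2.22 and 3.02 CPM in tumour CD71+ and 0.140 and 0.694 CPM in tumour CD71− (log2 fold change 2.62, SE 0.70, adjusted p = 0.00816), and without tumour CD71− replicate 1 its adjusted p was 0.102. Its counts were 23 and 32 in tumour CD71+ and 1 and 5 in tumour CD71−. Ndufaf7, known in human cells as a methyltransferase, had 10.8 and 18.1 CPM in tumour CD71+ and 28.1 and 29.6 CPM in tumour CD71− (log2 fold change −1.0, SE 0.28, adjusted p = 0.0108). Its fall did not hold with total-count scaling (adjusted p = 0.261), with scaling on mature neutrophil genes (adjusted p = 1) or without tumour CD71+ replicate 1 (adjusted p = 0.0907). The 6 other factors did not pass, with log2 fold changes from −0.61 for Ndufaf6 to 1.24 for Ndufaf5.

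**Figure D2:**
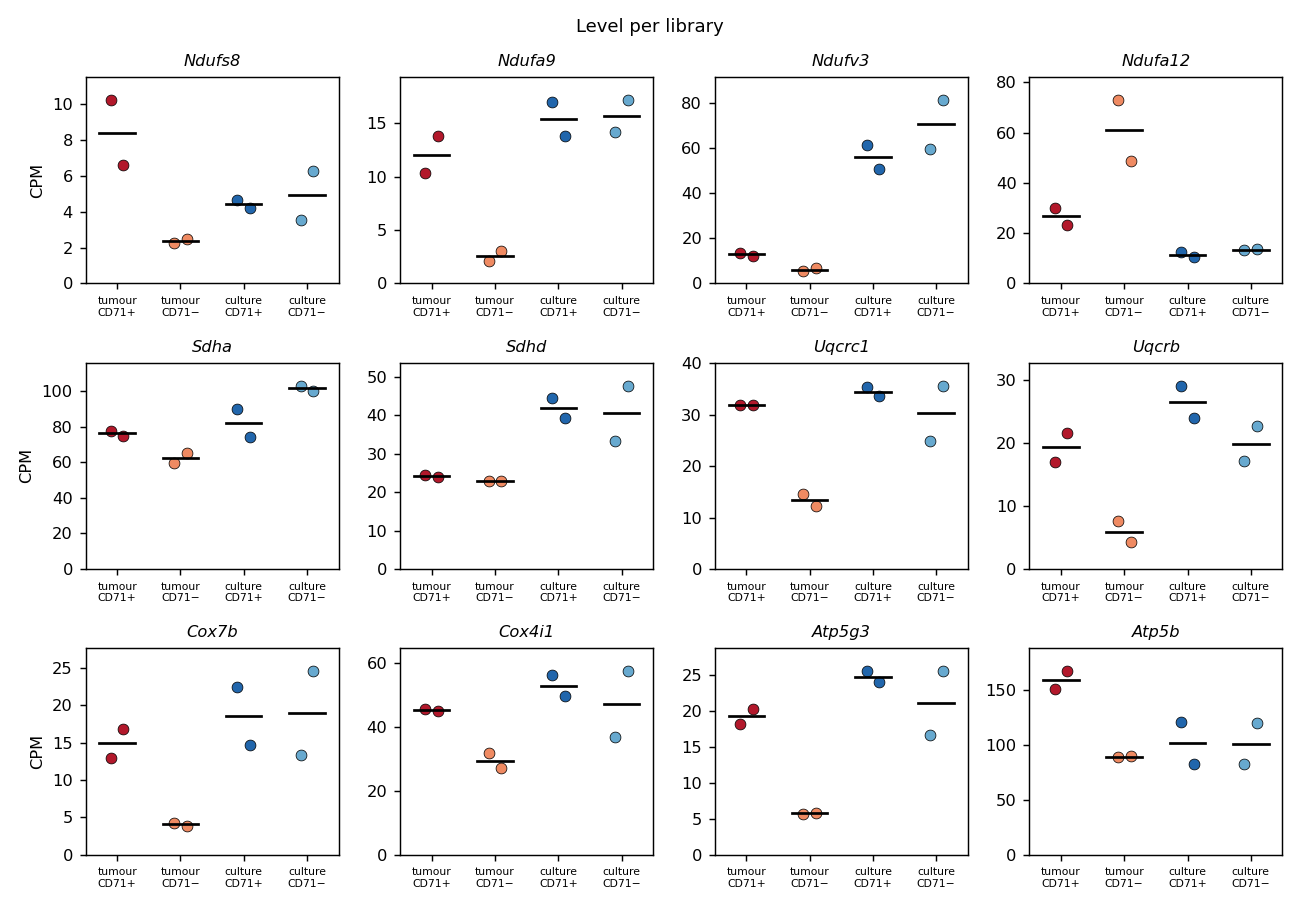
Level per library (CPM, TMM-scaled, y axes from 0) of 12 respiratory chain genes in tumour CD71+, tumour CD71−, culture CD71+ and culture CD71− (left to right); points are libraries and lines the means of 2. Ndufa12 is highest in tumour CD71−, at 73.0 and 48.8 CPM, where Ndufa9, Uqcrc1, Uqcrb, Cox7b and Atp5g3 are lowest.

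Complex II, which also works in the tricarboxylic acid cycle, had the lowest median of the 5 complexes. The median of its 4 genes was 0.33, and 1 passed. Sdhc, a membrane anchor, had 17.0 and 20.5 CPM in tumour CD71+ and 10.9 and 9.85 CPM in tumour CD71− (log2 fold change 0.86, SE 0.25, adjusted p = 0.0146). Sdha, the flavoprotein that oxidizes succinate, had 77.7 and 75 CPM in tumour CD71+ and 59.4 and 65.5 CPM in tumour CD71− and did not pass (log2 fold change 0.29, SE 0.17, adjusted p = 0.175). The iron-sulphur subunit Sdhb and the anchor Sdhd did not pass either, with log2 fold changes of 0.37 and 0.09 (adjusted p = 0.358 and 0.767). With 1 library left out, the adjusted p was 0.0797 for Sdhc without tumour CD71+ replicate 2, and 0.106 for Sdhc without tumour CD71− replicate 1. It was 0.156 for Sdhc without tumour CD71− replicate 2. By DESeq2 size factors and by DESeq2's Wald test the adjusted p of Sdhc was 0.0544 and 0.0678.

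In complex III, 4 of 8 genes were higher in tumour CD71+, with a median of 0.65. Uqcrc1, a core protein of the matrix side (chr9:108936633-108949623 on mm10), had 31.9 and 31.9 CPM in tumour CD71+ and 14.7 and 12.2 CPM in tumour CD71− (log2 fold change 1.25, SE 0.23, adjusted p = 0.000829). Uqcrb, which lies by the ubiquinone site, had 17.0 and 21.6 CPM in tumour CD71+ and 7.55 and 4.30 CPM in tumour CD71− (log2 fold change 1.70, SE 0.30, adjusted p = 0.000641), and 25.4% of its 50-base words recur in other genes. Uqcrc2, the partner of Uqcrc1, had 24.1 and 26.8 CPM in tumour CD71+ and 12.4 and 15.4 CPM in tumour CD71− (log2 fold change 0.87, SE 0.22, adjusted p = 0.00656). All 3 were separated between the fractions, while Uqcrfs1, the Rieske iron-sulphur protein that passes electrons on, was near the threshold with 14.1 and 14.5 CPM in tumour CD71+ and 7.97 and 9.71 CPM in tumour CD71− (adjusted p = 0.0494). The small subunits Uqcr10, Uqcr11, Uqcrh and Uqcrq did not pass and had log2 fold changes from −0.38 to 0.61. On leaving out 1 library, the adjusted p was 0.132 for Uqcrc2 without tumour CD71− replicate 1. Uqcrfs1 did not pass without either tumour CD71+ library, either tumour CD71− library or either culture CD71+ library (adjusted p = 0.0849 to 0.384). Its adjusted p was 0.167 with DESeq2 size factors, 0.222 by DESeq2's Wald test, 0.0521 with no filter and 0.0705 with the replicate block.

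In complex IV, 6 of 12 tested rows were higher in tumour CD71+, with a median of 0.62. Cox7b, a small membrane subunit, rose the most, with 13.0 and 16.9 CPM in tumour CD71+ and 4.19 and 3.89 CPM in tumour CD71− (log2 fold change 1.88, SE 0.36, adjusted p = 0.00120). Cox7c had 25 and 21.9 CPM in tumour CD71+ and 7.97 and 9.71 CPM in tumour CD71− (log2 fold change 1.41, SE 0.29, adjusted p = 0.00168), and Cox6c had 13.1 and 12.2 CPM in tumour CD71+ and 4.47 and 6.66 CPM in tumour CD71− (log2 fold change 1.18, SE 0.32, adjusted p = 0.00870). In these 3 small subunits the fractions did not overlap, which was a condition for Cox7b as one of the largest rises. Of the 50-base words of Cox7c, 22.1% recur elsewhere. Cox4i1, the largest nuclear subunit, had 45.8 and 45.1 CPM in tumour CD71+ and 31.7 and 27.1 CPM in tumour CD71− (log2 fold change 0.63, SE 0.22, adjusted p = 0.0328), and Cox5a, which binds next to it, had 10.2 and 18.7 CPM in tumour CD71+ and 7.97 and 7.35 CPM in tumour CD71− (log2 fold change 0.91, SE 0.32, adjusted p = 0.0319). The supercomplex factor Cox7a2l had 61.0 and 48.8 CPM in tumour CD71+ and 31.5 and 30.4 CPM in tumour CD71− (log2 fold change 0.83, SE 0.26, adjusted p = 0.0226). Not past the threshold were Cox5b, Cox6a1, Cox6b1, Cox7a2, Cox8a and Cox4i2, with log2 fold changes of 0.15, 0.53, 0.61, 0.16, −0.23 and −0.28 in that order; the value of Cox8a was 0.77 when scaled on mature neutrophil genes. When a single library was dropped, the adjusted p was 0.118 for Cox7a2l without tumour CD71+ replicate 1, and 0.171 for Cox6c, 0.0523 for Cox7c and 0.175 for Cox7a2l without tumour CD71− replicate 1. It was 0.187 for Cox7a2l without tumour CD71− replicate 2. Cox4i1 did not pass without either tumour CD71+ library, either tumour CD71− library or either culture CD71+ library (adjusted p = 0.0522 to 0.320). Cox5a did not pass without tumour CD71+ replicate 2, either tumour CD71− library or either culture CD71+ library (adjusted p = 0.0510 to 0.358). The calls of Cox4i1, Cox5a and Cox7a2l were also lost with DESeq2 size factors (adjusted p = 0.143, 0.0894 and 0.0779) and by DESeq2's Wald test (adjusted p = 0.188, 0.109 and 0.0768).

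In complex V, 9 of 17 tested rows were higher in tumour CD71+, with a median of 0.84. Atp5g1, Atp5g2 and Atp5g3 encode the same mature protein, subunit c of the membrane ring that protons turn, and all 3 were higher. Atp5g3 had 18.2 and 20.4 CPM in tumour CD71+ and 5.73 and 5.83 CPM in tumour CD71− (log2 fold change 1.74, SE 0.27, adjusted p = 0.000297), Atp5g1 had 9.73 and 7.26 CPM in tumour CD71+ and 2.66 and 2.50 CPM in tumour CD71− (log2 fold change 1.72, SE 0.37, adjusted p = 0.00238), and Atp5g2 had 21.9 and 11.8 CPM in tumour CD71+ and 5.31 and 5.69 CPM in tumour CD71− (log2 fold change 1.61, SE 0.45, adjusted p = 0.0133). Their fractions did not overlap, which was a condition for Atp5g3 and Atp5g1 as 2 of the largest rises. Of the 50-base words of Atp5g2, 36.7% recur in other genes. Of the catalytic head, the alpha subunit Atp5a1 had 127 and 120.4 CPM in tumour CD71+ and 64.6 and 53.4 CPM in tumour CD71− (log2 fold change 1.07, SE 0.22, adjusted p = 0.00173), and the beta subunit Atp5b, which holds the catalytic sites, had 151 and 167 CPM in tumour CD71+ and 88.8 and 89.5 CPM in tumour CD71− (log2 fold change 0.83, SE 0.21, adjusted p = 0.00706). Atp5c1, the gamma subunit that turns inside the head, had 24.5 and 30.4 CPM in tumour CD71+ and 11.9 and 18 CPM in tumour CD71− (log2 fold change 0.88, SE 0.24, adjusted p = 0.00945). Atp5o, which ties the head to the outer stalk, had 8.76 and 7.45 CPM in tumour CD71+ and 1.40 and 2.36 CPM in tumour CD71− (log2 fold change 2.10, SE 0.46, adjusted p = 0.00271), and the outer stalk subunit Atp5h had 22.2 and 28.7 CPM in tumour CD71+ and 15.8 and 14.7 CPM in tumour CD71− (log2 fold change 0.74, SE 0.20, adjusted p = 0.0105). Head, ring and stalk were thus each represented among the rows that passed. The exons of the counted Atp5o row (1972 bases) overlap others by 243 bases on the same strand and 702 on the opposite strand. After the loss of 1 library, the adjusted p was 0.0910 for Atp5g2 without tumour CD71+ replicate 1, and 0.0752 for Atp5c1 and 0.102 for Atp5h without tumour CD71+ replicate 2. It was 0.0657 for Atp5o, 0.105 for Atp5b, 0.220 for Atp5c1, 0.0931 for Atp5h and 0.114 for Atp5g2 without tumour CD71− replicate 1, and 0.0890 for Atp5b, 0.0566 for Atp5a1, 0.126 for Atp5h and 0.0980 for Atp5g2 without tumour CD71− replicate 2. The adjusted p of Atp5h was 0.0521 with DESeq2 size factors and 0.0715 by DESeq2's Wald test.

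**Figure D3:**
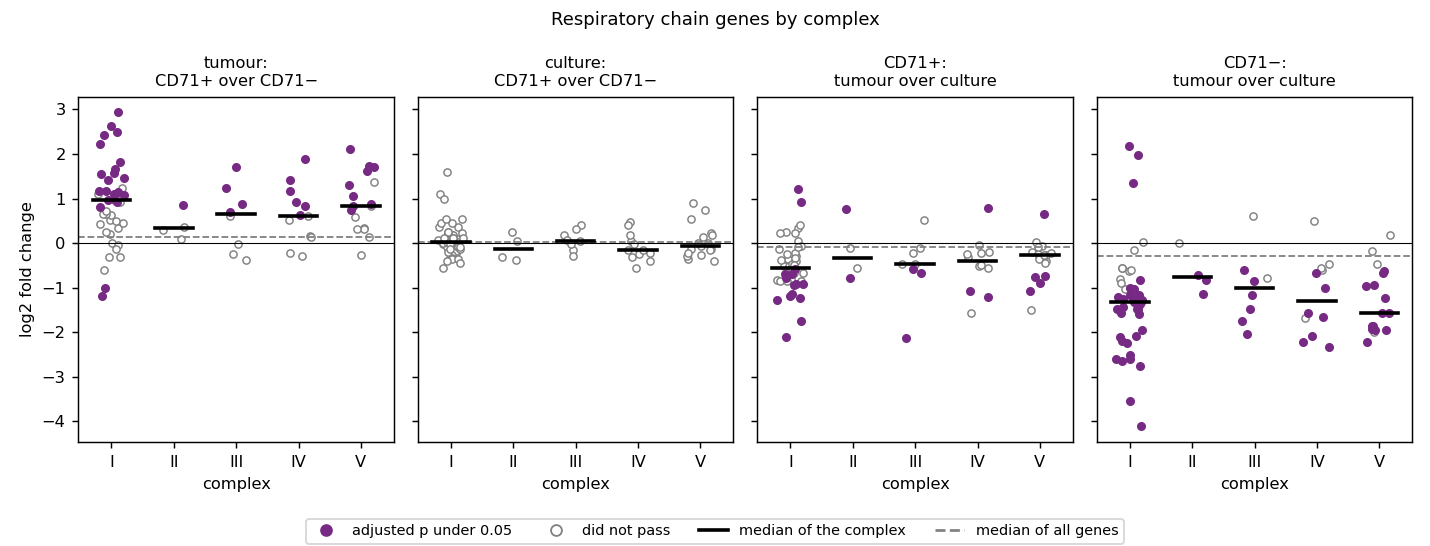
Log2 fold change (y axis) of each tested respiratory chain row by complex (x axis) in 4 comparisons; filled points passed at an adjusted p under 0.05, thick bars are medians of a complex and dashed lines the median of all tested genes. In the tumour panel the complex medians run from 0.33 (II) to 0.97 (I) against 0.13 for all genes, and in the culture panel no point is filled.

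Genes within a complex varied. The quartiles of the complex I rows lay at log2 fold changes of 0.42 and 1.24, of complex III rows at −0.07 and 0.96, of complex IV rows at 0.16 and 0.98, and of complex V rows at 0.33 and 1.38. No test was made between complexes, because their genes come from the same 4 libraries. Across the 86 rows, the change in the tumour had a Pearson correlation of 0.02 with log2 exon length and of −0.16 with mean log2 CPM, as a description of rows that share all libraries. Of the rows, 29 overlap exons on the opposite strand, 6 overlap exons on the same strand, and 4 share over 20% of their words with other genes; among the 54 tested rows free of all of these, 23 were higher and 2 lower.

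Promoter windows are shown for 5 genes of complexes I and III that passed in the tumour, 3 with a motif known from respiratory genes and 2 with none of those searched. Of the 2 without, Ndufv3 was higher in tumour CD71+ and Ndufa12 was lower. Windows run from 250 bases before to 50 after the RefSeq transcript start (build GRCm38.p6), and 74 of the 93 symbols had one. The motifs searched on both strands were GCATGCGC for NRF1 (nuclear respiratory factor 1), CCGGAAG for the core site of ETS factors such as GABP, and AAGATGGCG for YY1; none of them contains another. The windows are chr6:126849095-126849394 on the minus strand for Ndufa9, chr9:108936398-108936697 on the plus strand for Uqcrc1, chr19:3912725-3913024 on the minus strand for Ndufs8, chr17:31519865-31520164 on the plus strand for Ndufv3 and chr10:94198785-94199084 on the plus strand for Ndufa12. Capitals mark the YY1 motif in Ndufa9, overlapping NRF1 motifs of both strands in Uqcrc1 and the ETS core, read on the other strand, in Ndufs8.
Ndufa9: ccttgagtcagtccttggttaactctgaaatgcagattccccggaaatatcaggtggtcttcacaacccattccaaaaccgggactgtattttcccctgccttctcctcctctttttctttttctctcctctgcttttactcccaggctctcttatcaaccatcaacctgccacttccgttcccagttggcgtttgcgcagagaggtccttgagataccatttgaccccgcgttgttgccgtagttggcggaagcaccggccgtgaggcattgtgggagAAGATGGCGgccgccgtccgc
Uqcrc1: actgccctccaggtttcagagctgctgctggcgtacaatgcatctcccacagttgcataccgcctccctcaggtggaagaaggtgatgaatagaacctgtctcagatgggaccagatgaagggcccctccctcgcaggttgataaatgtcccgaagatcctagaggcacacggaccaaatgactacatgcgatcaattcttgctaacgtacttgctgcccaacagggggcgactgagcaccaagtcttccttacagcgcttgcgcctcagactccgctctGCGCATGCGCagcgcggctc
Ndufs8: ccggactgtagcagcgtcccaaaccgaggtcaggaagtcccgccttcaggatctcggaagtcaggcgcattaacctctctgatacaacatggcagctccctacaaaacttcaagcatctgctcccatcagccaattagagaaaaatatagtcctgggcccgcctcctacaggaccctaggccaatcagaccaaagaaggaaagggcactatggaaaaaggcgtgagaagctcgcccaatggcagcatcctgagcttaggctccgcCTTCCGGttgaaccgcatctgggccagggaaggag
Ndufv3: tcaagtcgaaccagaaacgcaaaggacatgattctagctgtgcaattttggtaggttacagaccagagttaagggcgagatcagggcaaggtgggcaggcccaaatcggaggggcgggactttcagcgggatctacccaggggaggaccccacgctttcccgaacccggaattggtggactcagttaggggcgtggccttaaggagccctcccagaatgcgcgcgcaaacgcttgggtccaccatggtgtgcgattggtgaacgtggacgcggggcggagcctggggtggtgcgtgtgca
Ndufa12: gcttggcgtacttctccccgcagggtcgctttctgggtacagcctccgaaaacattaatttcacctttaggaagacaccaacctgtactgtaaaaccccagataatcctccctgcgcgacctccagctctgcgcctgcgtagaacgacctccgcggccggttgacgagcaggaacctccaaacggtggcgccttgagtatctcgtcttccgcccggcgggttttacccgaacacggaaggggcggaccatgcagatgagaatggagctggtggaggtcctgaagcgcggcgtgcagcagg

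Of the 74 windows, 12 (16.2%) held the NRF1 motif, 18 (24.3%) the ETS core and 8 (10.8%) the YY1 motif, and 31 (41.9%) held any of the 3. In all 27025 windows of the table the shares were 3.05%, 9.93%, 1.64% and 13.6% in the same order. Among tested rows, 5 of 12 with the NRF1 motif were higher in tumour CD71+, against 27 of 58 without it. For the ETS core these counts were 3 of 18 with the motif and 29 of 52 without, with median log2 fold changes of 0.43 and 0.99, and for YY1 they were 4 of 8 and 28 of 62. The lengths of the motifs were chosen after their matches had been seen, so these shares and counts are a description and not a test. A match describes letters in a window, and no binding was measured.

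In culture, none of the 86 rows passed between the CD71+ and CD71− libraries by edgeR, where 7.88% of all tested genes were higher and 8.36% lower. The median log2 fold change was 0.00 (0.03 for all genes), 45 of 86 were above 0, and 3 rows had an unadjusted p under 0.05. DESeq2's Wald test also called 0. The summed level was 2015 and 1666 CPM in culture CD71+ and 1569.6 and 2189.6 CPM in culture CD71−, so that both culture CD71+ values lay between the 2 culture CD71− values. Ndufa9 had 16.9 and 13.8 CPM in culture CD71+ and 14.2 and 17.2 CPM in culture CD71− (log2 fold change −0.02, SE 0.26, adjusted p = 0.974). Uqcrc1 had 35.3 and 33.6 CPM in culture CD71+ and 24.8 and 35.7 CPM in culture CD71−, Cox7b had 22.5 and 14.7 CPM in culture CD71+ and 13.3 and 24.6 CPM in culture CD71−, and Atp5g3 had 25.6 and 24.0 CPM in culture CD71+ and 16.7 and 25.6 CPM in culture CD71−. In each of these 4 genes the fractions overlapped. Ndufc2 came closest to the threshold, with 9.04 and 7.30 CPM in culture CD71+ and 2.85 and 4.90 CPM in culture CD71− (log2 fold change 1.10, SE 0.36, adjusted p = 0.0515), and Ndufaf4, with 2.26 and 2.21 CPM in culture CD71+ and 0.890 and 0.545 CPM in culture CD71−, came next (log2 fold change 1.59, SE 0.55, adjusted p = 0.0638). Both passed as higher in tumour CD71+. Medians of the complexes lay between −0.15 for complex IV and 0.05 for complex III.

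The culture result rests on a CD71− pair that differed over these genes. Without culture CD71− replicate 1 the median minus that of all genes was −0.32, and without culture CD71− replicate 2 it was 0.28. Without tumour CD71+ replicates 1 and 2, neither of which belongs to the groups compared, it was −0.02 and −0.01. In culture CD71+, 11 of 14 tested macrophage and monocyte markers and 4 of 10 microglia markers were higher. The ratio of mean sums, CD71+ over CD71−, was 1.68 for the macrophage and monocyte list in culture and 4.04 in the tumour. For the microglia list it was 2.02 in culture and 10.3 in the tumour. The part of these lists in the culture result was not tested.

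The CD71 difference in the tumour exceeded that in culture for part of the chain. The test of the difference between both effects gave 16 of 86 rows with a larger log2 fold change in the tumour and 0 with a smaller one, against 10.8% and 4.71% of all genes, and 3 of 86 had a smaller one at an unadjusted p under 0.05. DESeq2's Wald test gave 10 and 2, the 2 being Ndufa12 and Ndufaf7. The median difference, tumour minus culture, was 0.78 on the log2 scale, against 0.18 for all genes, and the gap of 0.60 between them ran from 0.34 to 0.82 as single libraries were left out. Of the 16, 8 belonged to complex I, 2 to complex III, 1 to complex IV and 5 to complex V, and all 16 were also higher in tumour CD71+ than in tumour CD71−. For Ndufa9 the difference was 2.25 (SE 0.42, adjusted p = 0.00384), from 2.22 in the tumour and −0.02 in culture, and it held in all 15 alternative settings. For Atp5o it was 2.24 (2.10 in the tumour and −0.14 in culture, adjusted p = 0.0222), for Ndufs8 1.95 (1.82 and −0.13 in the same order, adjusted p = 0.0301), for Cox7b 1.90 (1.88 and −0.02, adjusted p = 0.0166), and for Ndufs6, an accessory subunit with a zinc site, 1.83 (1.56 and −0.26, adjusted p = 0.0284). Each of these 5 was below 0 in culture by less than its SE. Of the other lists, 5 of 10 microglia markers and 5 of 14 macrophage and monocyte markers also had a larger effect in the tumour and 2 of the 14 a smaller one, and their part in the result was not tested. The share of rows with a larger effect in the tumour depended on single libraries. It was near or below that of all genes without either tumour CD71− library, either culture CD71+ library or culture CD71− replicate 2. The gap between medians was 0.48 and 0.56 without tumour CD71− replicates 1 and 2, and 0.66 and 0.45 without culture CD71+ replicates 1 and 2. It was 0.82 and 0.34 without culture CD71− replicates 1 and 2, and 0.58 and 0.65 without tumour CD71+ replicates 1 and 2. Ndufa9 is the row that held throughout, and the other 4 named did not pass without 1 or more of the libraries. With single libraries removed, the adjusted p was 0.0902 for Cox7b without tumour CD71− replicate 1, and 0.111 for Cox7b without tumour CD71− replicate 2. It was 0.0815 for Cox7b without culture CD71+ replicate 2. Atp5o did not pass without either tumour CD71− library, either culture CD71+ library or culture CD71− replicate 2 (adjusted p = 0.0602 to 0.148). Ndufs8 did not pass without tumour CD71+ replicate 1, either tumour CD71− library, either culture CD71+ library or culture CD71− replicate 2 (adjusted p = 0.0818 to 0.137). Ndufs6 did not pass without tumour CD71+ replicate 2, either tumour CD71− library, either culture CD71+ library or culture CD71− replicate 2 (adjusted p = 0.0556 to 0.155).

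**Figure D4:**
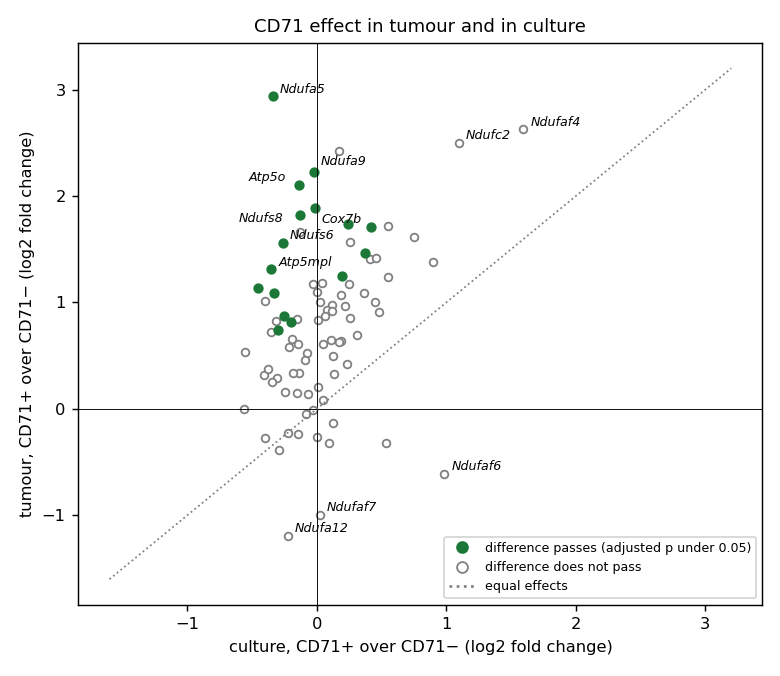
Log2 fold change of CD71+ over CD71− in the tumour (y axis) against that in culture (x axis) for the 86 tested rows; filled points are the 16 whose difference passed, and the dotted line marks equal effects. All 16 lie above the line, and Ndufa12, Ndufaf7 and Ndufaf6 lie below it. The axes come from the same fit.

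Set against culture neutrophils, respiratory chain transcripts were lower in the tumour in the CD71− fraction. In the CD71+ fraction the share of lower rows was close to that of all genes with TMM, but not with every scaling. There 5 of 86 rows were higher, against 30.3% of all genes, and the median was −0.47, against −0.08 for all genes. The 16 rows with a larger CD71 difference in the tumour are also those in which the gap to culture differed between the fractions by test, since it is the same contrast. Among CD71− libraries, 62 of 86 rows were lower in the tumour and 3 higher, where 36.8% of all genes were lower and 30.3% higher. The median log2 fold change was −1.25, against −0.28 for all genes, and 78 of 86 were below 0. Medians were −1.31 for complex I, −0.77 for II, −1.01 for III, −1.29 for IV and −1.56 for V. Ndufv3, an accessory subunit at the NADH-oxidizing tip (chr17:31520115-31531331 on mm10), differed most among rows above 5 CPM, with 5.31 and 6.80 CPM in tumour CD71− and 59.6 and 81.2 CPM in culture CD71− (log2 fold change −3.54, SE 0.24, adjusted p = 2.3e-08). Ndufb10 had 2.94 and 1.80 CPM in tumour CD71− and 11.3 and 15.8 CPM in culture CD71− (log2 fold change −2.50, SE 0.38, adjusted p = 4.7e-05), Cox6c had 4.47 and 6.66 CPM in tumour CD71− and 20.5 and 36.2 CPM in culture CD71− (log2 fold change −2.34, SE 0.31, adjusted p = 1.6e-05), and Ndufab1, the acyl carrier protein of mitochondria, had 1.54 and 3.19 CPM in tumour CD71− and 13.0 and 9.17 CPM in culture CD71− (log2 fold change −2.23, SE 0.36, adjusted p = 0.000101). Ndufa9 averaged 2.58 ± 0.676 CPM in tumour CD71− and 15.7 ± 2.11 CPM in culture CD71− (SD, n = 2 each; log2 fold change −2.60, SE 0.32, adjusted p = 8.6e-06). Groups that did not overlap were part of how these 5 genes were chosen. Ndufa12, Ndufaf7 and Ndufaf6 were the 3 that were higher in tumour CD71−. Ndufa12 had 73.0 and 48.8 CPM in tumour CD71− and 13.3 and 13.5 CPM in culture CD71− (log2 fold change 2.18, SE 0.24, adjusted p = 2.8e-06), Ndufaf7 had 28.1 and 29.6 CPM in tumour CD71− and 12.1 and 10.4 CPM in culture CD71− (log2 fold change 1.35, SE 0.28, adjusted p = 0.000717), and Ndufaf6 had 4.19 and 5.69 CPM in tumour CD71− and 1.36 and 1.09 CPM in culture CD71− (log2 fold change 1.99, SE 0.43, adjusted p = 0.00104). With total-count scaling the adjusted p of Ndufaf7 was 0.206, and on the mature neutrophil scaling it was 0.611 for Ndufaf7 and 0.358 for Ndufaf6, while Ndufa12 passed in all 17 alternative settings. Among catalytic subunits, Sdha averaged 62.5 ± 4.30 CPM in tumour CD71− and 102 ± 1.99 CPM in culture CD71− (adjusted p = 0.00204), and Atp5a1 averaged 59.0 ± 7.90 CPM in tumour CD71− and 114 ± 33.5 CPM in culture CD71− (adjusted p = 0.00166; SD, n = 2 each). Atp5b and Sdhb did not pass, with log2 fold changes of −0.18 and 0.01, the second of which was −0.90 with total-count scaling. Without tumour CD71− replicate 1 the adjusted p of Sdha was 0.0733, and without tumour CD71− replicate 2 that of Atp5a1 was 0.0633. Mature neutrophil markers, 25 genes, summed to 39659.8 and 41929 CPM in tumour CD71− and 13115 and 11805 CPM in culture CD71−, with 19 of 25 higher and 2 lower in the tumour. Microglia markers were higher in 7 of 10 and lower in 1, macrophage and monocyte markers higher in 9 of 14 and lower in 3, and glioma and neural markers higher in 6 of 9. The part of these lists in the result was not tested. Of the 62 lower rows, 36 held in every alternative in which they could be tested. The count of lower rows and the share of all genes that were lower both moved as single libraries were left out. The median minus that of all genes was −1.04 and −1.12 without tumour CD71− replicates 1 and 2. It was −1.29 and −0.83 without culture CD71− replicates 1 and 2.

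Among CD71+ libraries the gap was smaller, with 23 of 86 rows lower in the tumour and 5 higher, where 27.6% of all genes were lower and 30.3% higher, and a median of −0.47 against −0.08 for all genes. In all, 22 rows were lower in both comparisons, which is 22 of the 23 here and 22 of the 62 in CD71−. The share of all genes lower in both was not computed, so the overlap cannot be read as a trait of the chain. Ndufv3 again differed most, with 13.6 and 12.3 CPM in tumour CD71+ and 61.2 and 50.7 CPM in culture CD71+ (log2 fold change −2.11, SE 0.22, adjusted p = 1.9e-06). Ndufab1 had 6.07 and 6.60 CPM in tumour CD71+ and 14.7 and 15.8 CPM in culture CD71+ (log2 fold change −1.27, SE 0.31, adjusted p = 0.00305), Ndufb7 had 6.55 and 4.24 CPM in tumour CD71+ and 12.9 and 12.3 CPM in culture CD71+ (log2 fold change −1.22, SE 0.29, adjusted p = 0.00254), and Cox6c had 13.1 and 12.2 CPM in tumour CD71+ and 31.0 and 27.1 CPM in culture CD71+ (log2 fold change −1.20, SE 0.28, adjusted p = 0.00213). These 4 genes, chosen among rows whose groups did not overlap, held in every alternative, as did Sdhd, Cox7c and Atp5h. Ndufc2, with 3.95 and 3.2 CPM in tumour CD71+ and 9.04 and 7.30 CPM in culture CD71+, also passed (log2 fold change −1.19, SE 0.37, adjusted p = 0.0124), and without culture CD71+ replicate 1 its adjusted p was 0.115. The 5 that were higher in tumour CD71+ were Ndufa12 with 30.1 and 23.2 CPM in tumour CD71+ and 12.6 and 10.4 CPM in culture CD71+ (adjusted p = 0.000577), Ndufs8 (0.92 on the log2 scale, adjusted p = 0.0400), Cox5b (0.79, 0.0182), Sdhb (0.76, 0.0441) and Atp5b (0.64, 0.0182). Mature neutrophil markers summed to 20884 and 20019.9 CPM in tumour CD71+ and 7670.0 and 6133 CPM in culture CD71+, with 18 of 25 higher and 2 lower in the tumour. Markers were higher in 10 of 10 for microglia, in 9 of 14 for macrophages and monocytes, where 1 was lower, and in 8 of 9 for glioma and neural cells; the part of these lists was not tested. None of these 5 passed as higher with total-count scaling (adjusted p = 0.0517 for Ndufa12) or when scaled on mature neutrophil genes, where all 5 log2 fold changes were below 0. On removing 1 library, the adjusted p was 0.117 for Cox5b without tumour CD71+ replicate 1, and 0.111 for Atp5b without tumour CD71+ replicate 2. It was 0.263 for Atp5b and 0.252 for Cox5b without culture CD71+ replicate 2. Ndufs8 did not pass without tumour CD71+ replicate 1, either tumour CD71− library or either culture CD71+ library (adjusted p = 0.0535 to 0.280). Sdhb did not pass without either tumour CD71+ library, either tumour CD71− library or either culture CD71+ library (adjusted p = 0.0669 to 0.187). The count of lower rows and the share of all genes that were lower both moved as single libraries were left out. The median minus that of all genes was −0.31 and −0.57 without culture CD71+ replicates 1 and 2. It was −0.44 without each culture CD71− replicate in turn.

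The direction of all genes together depended on the scaling of the libraries, while the gap between the respiratory chain and all genes moved by at most 0.04. A change of scaling shifts all genes of a comparison by nearly the same amount. The gap therefore had to stay nearly the same, and its constancy is no evidence of a stable result. In the tumour the all-gene median of CD71+ over CD71− was 0.13 with TMM, −0.07 with DESeq2 size factors, 0.69 with total counts and 1.12 when scaled on mature neutrophil genes. The respiratory chain median exceeded it by 0.70, 0.68, 0.69 and 0.71 in the same order. In culture the gap was −0.02, −0.04, −0.02 and −0.05. Between tumour and culture it was −0.96, −0.97, −0.96 and −1.0 in CD71−, and −0.39, −0.39, −0.38 and −0.38 in CD71+. Counts of rows that passed shifted with the all-gene median. In the tumour 31 rows were higher and 3 lower with DESeq2 size factors, 66 and 1 with total counts, and 76 and 0 when scaled on mature neutrophil genes. Of all genes, 21.6%, 42.5% and 56.4% were higher in the same order. Over all genes, higher calls made up 60.2% of tumour calls by TMM, 47.3% with DESeq2 size factors, 93.3% with total counts and 99.6% when scaled on mature neutrophil genes. The same shares were 48.5%, 42.3%, 80.9% and 97.4% in culture, 52.3%, 55.5%, 29.3% and 17.8% for tumour against culture in CD71+, 45.1%, 52.1%, 25.3% and 16.9% in CD71−, and 69.6%, 52.1%, 87.4% and 83.2% for the difference.

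**Figure D5:**
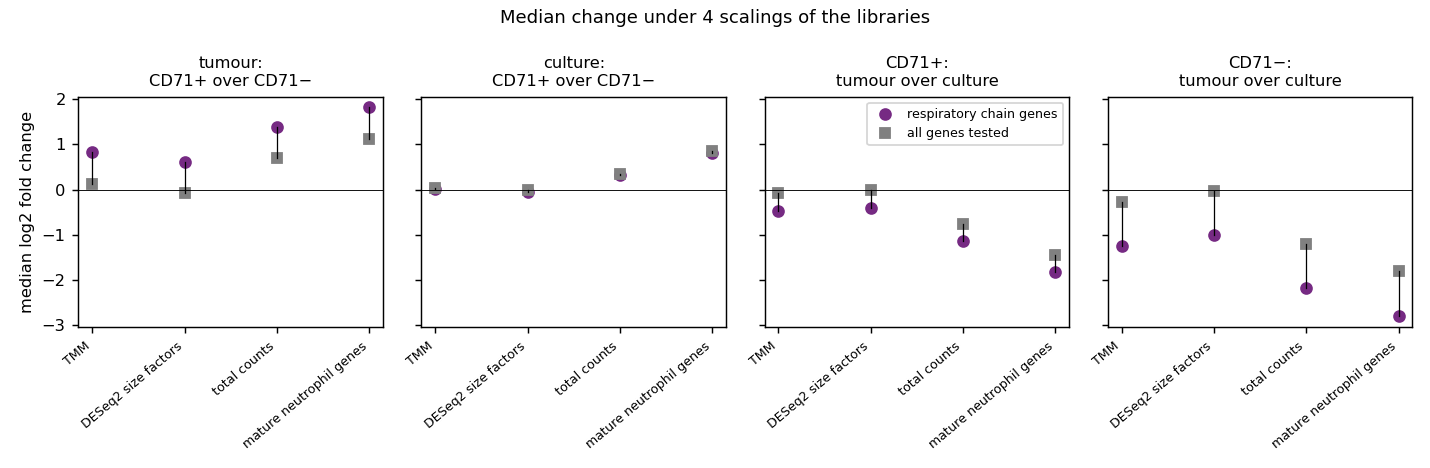
Median log2 fold change (y axis) of the 86 respiratory chain rows (circles) and of all 15975 tested genes (squares) in 4 comparisons under 4 scalings of the libraries (x axis). Both medians move together because a change of scaling shifts all genes nearly alike. The gap between them, drawn as a line, is therefore nearly fixed, at 0.68 to 0.71 in the tumour and −0.02 to −0.05 in culture.

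Other mitochondrial genes encoded in the nucleus were set beside the chain. Of 77 tested mitochondrial ribosomal protein genes, 36 were higher in tumour CD71+ and 3 lower (median 1.03), of 14 tricarboxylic acid cycle genes 8 were higher (median 1.02), and of 34 assembly factors and carriers outside the rule 10 were higher and 3 lower (median 0.51). In culture 2 of the 77, 1 of the 14 and 1 of the 34 were higher. The 13 mRNAs of mitochondrial DNA, which encode the remaining subunits, were measured in the same libraries. They summed to 7348 and 9149 CPM in tumour CD71+ and 4689 and 2359 CPM in tumour CD71−, with 1 of 13 higher (median 0.75), and to 9102 and 13111 CPM in culture CD71+ and 42934 and 81224 CPM in culture CD71−, with 12 of 13 lower (median −2.93). Regulators of mitochondrial biogenesis had 5 of 12 higher and 2 lower in tumour CD71+ (median 0.23).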

How the data were processed

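RNA was sequenced from 8 libraries of sorted neutrophils. Per the labels' protocols, RNA came from a Zymo Quick-RNA Microprep kit, and Illumina's stranded total RNA kit with Ribo-Zero Plus depletion of ribosomal RNA gave the libraries. The authors deposited raw read counts per gene, and the submitters' processing notes name mm10, FastQC, cutadapt, STAR, featureCounts and DESeq2; their versions and the strand setting are not given in the sources used here. Total counts ran from 9598959 to 22615813 per library, so counting error is largest for genes with few reads. Of 55450 gene IDs, 55450 matched GENCODE M21, which gave positions and exon lengths.

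Counts were scaled by TMM, filtered with filterByExpr and tested in 1 fit over the 4 groups with edgeR 4.0.16 (quasi-likelihood, R 4.3.3), with Benjamini-Hochberg adjustment over 15975 genes. The fit had 4 residual degrees of freedom and a common biological coefficient of variation of 0.190. Genes named with values were core or catalytic subunits, isoforms of 1 subunit, members at 0, the 5 highest per length, and in each comparison the 5 largest rises and falls that passed with a mean of at least 5 CPM and groups that did not overlap. Ndufa10, Ndufb5, Ndufaf4, Ndufaf6 and a few further members were named after their values were seen. The members and all gene lists were chosen with earlier results of these data known, and the lengths of the promoter motifs after their matches had been seen. Individual values of 1 complex I gene and 1 marker are not reported here, while counts over lists include them. Replicates differed by more than sampling noise, with a chi-square per degree of freedom of 11.4 to 67.3.

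Further lists were checked between tumour CD71+ and tumour CD71−: 3 of 6 dendritic cell, 3 of 3 lymphocyte, 5 of 9 glioma and neural and 3 of 6 endothelial and stromal markers were higher, and 0 of 6 early neutrophil, 0 of 5 eosinophil, basophil and mast cell and 0 of 1 erythroid markers were. In the dendritic and the endothelial list 1 marker each was lower. Alternatives were 3 other scalings, DESeq2 1.42.0, 2 other filters, smaller fits, a replicate block and leaving out each library.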

Additional observations from a re-analysis of the deposited data

Results flagged for a closer look

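In 16 respiratory chain genes the CD71 difference was larger in the tumour than in culture by the test of the difference itself (edgeR, adjusted over all genes), and values of 15 follow. Tumour minus culture on the log2 scale, in complex I it was 3.28 for Ndufa5 (adjusted p = 0.0222), 2.25 for Ndufa9 (adjusted p = 0.00384), 1.95 for Ndufs8 (adjusted p = 0.0301), 1.83 for Ndufs6 (adjusted p = 0.0284), 1.6 for Ndufb10 (adjusted p = 0.0446), 1.42 for Ndufv3 (adjusted p = 0.0102) and 1.10 for Ndufa10 (adjusted p = 0.0421). In complexes III and IV it was 1.29 for Uqcrb (adjusted p = 0.0423), 1.05 for Uqcrc1 (adjusted p = 0.0348) and 1.90 for Cox7b (adjusted p = 0.0166). In complex V it was 2.24 for Atp5o (adjusted p = 0.0222), 1.66 for Atp5mpl (adjusted p = 0.0274), 1.5 for Atp5g3 (adjusted p = 0.0134), 1.13 for Atp5c1 (adjusted p = 0.0308) and 1.03 for Atp5h (adjusted p = 0.0234). Ndufa5 rests on few reads, with 12 and 34 counts in tumour CD71+, 1 and 3 in tumour CD71−, 133 and 108 in culture CD71+ and 81 and 56 in culture CD71−. Of the 16, 1 (Ndufa9) held without each of the 8 libraries in turn. Groups of 2 libraries are too small to test for a single library that stands apart.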

How the results depend on the processing

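The counts of respiratory chain rows that passed moved with the scaling and with single libraries, and the cause was not tested. Within the tumour (40 higher, 2 lower), total counts gave 66 and 1, scaling on mature neutrophil genes gave 76 and 0, and structural subunits alone had 1 lower. Of all genes, 42.5% were higher with total counts and 56.4% on mature neutrophil genes. In culture (0 and 0), the higher rows numbered 5 with total counts, 40 on mature neutrophil genes, 3 with no filter and 2 with only the 2 groups fitted. Of all genes, 16.4%, 49.4%, 5.60% and 7.46% were higher in the same order, so the share of the chain did not exceed that of all genes. For tumour against culture in CD71+ (5 higher, 23 lower), total counts gave 0 and 68, mature neutrophil genes gave 0 and 80, no filter left 2 higher and the replicate block 3. Of all genes, 49.8% were lower with total counts and 64.8% on mature neutrophil genes. In CD71− (3 higher, 62 lower), 1 was higher on mature neutrophil genes and 1 among structural subunits. For the difference between effects (16 larger, 0 smaller), DESeq2 size factors gave 10 and 1, DESeq2's Wald test gave 10 and 2, total counts gave 31 larger, and no filter or at least 10 counts in every library each gave 1 smaller. Of all genes, 8.24% had a larger effect with DESeq2 size factors, 8.70% by DESeq2's Wald test and 17.1% with total counts. Leaving out 1 library gave 13 to 45 higher and 1 to 2 lower in the tumour, 0 to 3 of each in culture, 1 to 5 higher and 9 to 36 lower in CD71+, 3 to 4 higher and 39 to 64 lower in CD71−, and 1 to 32 larger and 0 to 1 smaller for the difference. A lone library left in a group is then assumed to vary like the other groups. In every comparison the share of all genes that passed also moved with the library left out. These ranges of counts therefore do not describe the chain alone. The median of the chain minus that of all genes ran from 0.59 to 0.70 in the tumour, from −0.32 to 0.28 in culture, from −0.57 to −0.31 in CD71+, from −1.29 to −0.83 in CD71− and from 0.34 to 0.82 for the difference.

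Directions changed as follows. With total counts, the log2 fold change of tumour over culture was −0.026 for Atp5b in CD71+ and −0.90 for Sdhb in CD71−. Scaled on mature neutrophil genes, it was 0.77 for Cox8a within the tumour, and in culture 0.78 for Ndufa9 and 0.51 for Sdha. On that scaling tumour over culture was −0.61 for Sdhb, −0.14 for Ndufa12, −1.34 for Atp5o, −1.01 for Ndufaf7, −0.70 for Atp5b, −1.12 for Ndufv1, −0.44 for Ndufs8 and −0.56 for Cox5b in CD71+, and −1.55 for Sdhb, −0.17 for Ndufaf7 and −1.05 for Cox5b in CD71−.

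Deviations of same-numbered libraries correlated at −0.14 to 0.07. With 2 libraries per group, these values cannot show whether the sample numbers of the labels pair the libraries. With the replicate block, 38 rows were higher and 2 lower in the tumour, 0 and 0 in culture, 3 and 21 in CD71+, 3 and 61 in CD71−, and 11 and 0 for the difference. With the numbers of culture CD71− crossed, chosen after seeing the data, CD71− gave 3 and 65.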
